A study of Homo sapiens with 4 samples.

Results

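The BCL2 family genes BCL2, BCL2L1, MCL1, BCL2A1, BCL2L11, PMAIP1, BID, BAK1, BIK and BMF, chosen by symbol, were followed through 4 RNA-seq libraries of breast cancer mammospheres. All 10 were found among the 26475 genes in the tables, and 9 of them reached 10 reads in at least 1 library, the minimum for a comparison, which 15204 genes met. The mRNA of these 9 genes differed little between the libraries, as did that of most genes. The highest library exceeded the lowest by 1.07-fold for BCL2L11 and by up to 1.34-fold for BCL2, and no member passed the limits for a call (at least 1.5-fold, with a 95% counting interval that excludes no change) in any of 5 comparisons between libraries.

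The cells were MDA-MB-468, a human triple-negative breast carcinoma line, grown as mammospheres, floating spheres that enrich for cells able to survive and divide without attachment. The question behind the experiment was which transcripts change when TCOF1, a nucleolar factor with a known role in ribosomal RNA synthesis, is knocked out. In MDA-MB-468 cells the study itself found no loss of the ribosomal RNAs it measured, and no damage to them, after the knockout. CTL was the control pool without treatment and CTL+dox the same pool with doxycycline, and both are labelled wild type. gRNA2 carried the doxycycline-inducible TCOF1 guide RNA without treatment and is also labelled wild type, and gRNA2+dox carried the same guide with doxycycline and is labelled as a knockout of TCOF1. By the study's methods the cells were sorted pools that also carried Cas9, not single clones, and several plates were pooled into each library. The doxycycline dose of these cultures is not given in the sources used here. Each condition had 1 library and no biological replicate, so none of the differences below has a replicate check and no p-value is given.

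The target of the guide carried by both libraries of the guide pool is shown because a cut there defines the knockout. It is given with its protospacer-adjacent motif in capitals, and lies in exon 11 of the 27 exons of the canonical TCOF1 transcript, on the reverse strand at chr5:149754959-149754981 of GRCh37.
TCOF1 gRNA2 target: gggccggcgcctttccccaaGGG

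TCOF1 itself had 1019 reads in CTL and 754 in CTL+dox, against 1318 in gRNA2 and 437 in gRNA2+dox. Scaled to library size, the levels were 50.4, 33.5, 50.1 and 20.0 CPM (reads per 1000000, after scaling of the library sizes), so the library labelled as the knockout was the lowest and CTL+dox lay between it and both untreated libraries. The log2 ratio of gRNA2+dox to gRNA2 was -1.32, with a 95% interval from -1.48 to -1.17. Doxycycline in the control pool also went with fewer reads, a ratio of -0.59 (-0.73 to -0.45), which likewise passed the limits for a call. The untreated pools did not differ beyond counting error (-0.01, -0.13 to 0.11). Reads on TCOF1 do not show how many of them carry an edit.

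Reads assigned to genes ran from 19960644 to 26322847 a library, 79.7% to 81.0% of the 25019928 to 33015527 reads in the tables. The cells had the markers of their line. EGFR stood at 2458 to 3367 CPM and KRT5 at 3284 to 4192 CPM, while the hormone receptor genes ESR1 and PGR had at most 13 and 7 reads. Of the 10 white blood cell markers, CD3D and NKG7 had 0 reads in every library and PTPRC had at most 2, and the summed level of 106 to 126 CPM came mainly from CD68 and CD14. The 7 fibroblast and endothelial markers summed to 17.9 to 22.5 CPM, almost all of it COL1A1, and CDH5 had 0 reads.

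The BCL2 family decides whether the outer mitochondrial membrane is opened, the step that releases cytochrome c and commits most cells to apoptosis. Pro-survival members such as BCL2, BCL2L1 (BCL-XL), MCL1 and BCL2A1 bind and restrain the effectors BAK1 and BAX, which form the pores. BH3-only proteins, here BCL2L11 (BIM), PMAIP1 (NOXA), BID, BIK and BMF, report stress by occupying the pro-survival proteins or by activating the effectors directly. Loss of attachment is one of the stresses they report in breast epithelium, where BCL2L11 and BMF are known for their part in death on detachment. Much of their control lies in protein stability, cleavage and binding, which RNA-seq does not measure.

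Together the 10 genes took 21635 reads in CTL and 23893 in CTL+dox, against 27350 in gRNA2 and 22198 in gRNA2+dox, or 0.105% of all counts assigned to genes. Levels between genes were compared in CPM per kilobase of the canonical transcript. On that scale BCL2L1 was the highest, with a median of 111 over the 4 libraries and a range of 106 to 118. PMAIP1 followed at a median of 103 and a range of 96.8 to 112, so the ranges of the leading pair overlapped. MCL1 came next at 69.3, then BID at 42.4 and BAK1 at 37.5.

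BCL2L11 was lower at a median of 17.0 CPM per kilobase, and BIK and BMF stood at 4.59 and 3.43. BCL2 was the lowest of the 9 members tested, at 1.08. From PMAIP1 downwards no neighbours in this order overlapped between libraries, so that stretch of the order was the same in every library, the knockout included. It rests on the transcript length used. With all annotated exons of a gene in place of the canonical transcript, PMAIP1 at 89.5 stood above BCL2L1 at 68.1, and BAK1 at 36.8 stood above BID at 20.9. The counts used here left out part of the reads on BCL2L1 exons, as described below. Its all-exon level with those reads was not computed, so this order of PMAIP1 and BCL2L1 is uncertain.

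**Figure D1:**
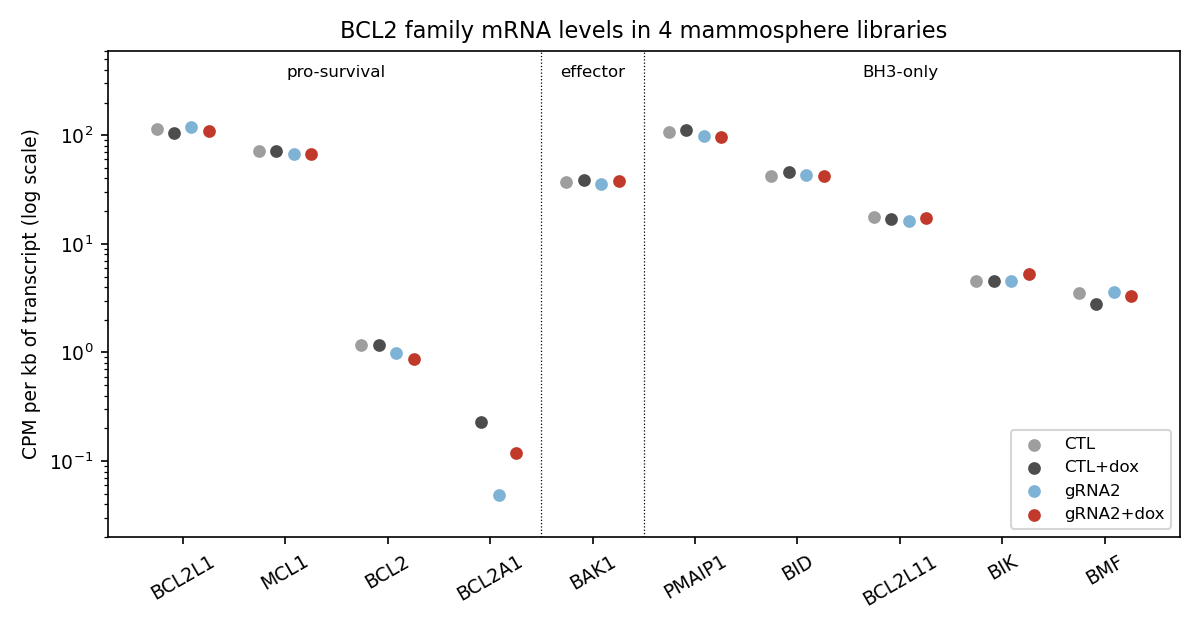
Levels of the 10 members in CPM per kilobase of canonical transcript on a log axis, 1 point per library (grey CTL, dark grey CTL+dox, blue gRNA2, red gRNA2+dox), with the members grouped by role. The points of each member lie close together except for BCL2A1, whose 0 reads in CTL cannot be drawn on a log axis and whose other points stand for 1 to 4 reads.

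Among the pro-survival genes, BCL2 (chr18:63123346-63320090 of GRCh38), the founding member of the family, had 164 reads in CTL and 180 in CTL+dox, against 179 in gRNA2 and 132 in gRNA2+dox. In CPM the levels were 8.10, 8.0, 6.80 and 6.05 CPM. The knockout library was the lowest of the 4, and gRNA2 without doxycycline lay nearer to it than to the control pool. The log2 ratio of gRNA2+dox was -0.42 against CTL (95% interval -0.76 to -0.08) and -0.40 against CTL+dox (-0.74 to -0.07). Within the guide pool it was -0.17 (-0.50 to 0.16), an interval that includes 0. Counts are also given for each strand, but the libraries do not mark strand, so each strand column is only a part of the same reads. These parts were 69 and 95 reads in CTL and 69 and 63 in gRNA2+dox. With either strand column alone the ratio to CTL was -0.11 and -0.70, and the second of these passed the limits for a call. The intervals come from the reads of the 2 libraries alone, cover counting error only and compare those libraries, not the conditions.

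BCL2L1 (chr20:31664452-31723963), whose main product BCL-XL protects many epithelial tumours from apoptosis, had 5895 reads in CTL and 6122 in CTL+dox, against 8021 in gRNA2 and 6117 in gRNA2+dox. Its level was 291, 272, 305 and 280 CPM in the same order. Both doxycycline libraries were below both untreated ones. The log2 ratio of the doxycycline library to its own untreated pool was -0.12 with the TCOF1 guide (-0.17 to -0.07) and -0.10 in the control pool (-0.15 to -0.05). The difference between these ratios was -0.02, with an interval from -0.09 to 0.05.

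MCL1 (chr1:150574558-150579610), a short-lived pro-survival protein, was almost as abundant in reads. It had 5756 reads in CTL and 6373 in CTL+dox, against 6950 in gRNA2 and 5773 in gRNA2+dox, or 284, 283, 264 and 264 CPM. The split was by pool: both libraries of the guide pool were below both control libraries, and doxycycline gave a log2 ratio of 0.0026 in the guide pool (-0.05 to 0.05) and -0.0059 in the control pool (-0.06 to 0.05). The ratio of gRNA2 to CTL was -0.11 (-0.16 to -0.06) before any doxycycline.

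BCL2A1 (chr15:79960892-79971196), a pro-survival gene known mainly from blood cells and as an NF-kappa-B target, was near the limit of detection. It had 0 reads in CTL and 4 in CTL+dox, against 1 in gRNA2 and 2 in gRNA2+dox. A count of 0 in CTL allows up to 0.148 CPM, the level of 3 reads there, and the highest value in any library was 0.178 CPM. A difference between conditions was not detectable at this depth, and BCL2A1 was not tested.

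BAK1 (chr6:33572552-33580276) was the effector in the set. It had 1620 reads in CTL and 1873 in CTL+dox, against 2043 in gRNA2 and 1805 in gRNA2+dox. The levels were 80.1, 83.3, 77.6 and 82.7 CPM, slightly higher with doxycycline in each pool. The log2 ratio was 0.09 in the guide pool (-0.00055 to 0.18) and 0.06 in the control pool (-0.04 to 0.15), and no interval of BAK1 in any of the 5 comparisons excluded 0.

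PMAIP1 (chr18:59899996-59904305), a BH3-only gene whose product mainly binds MCL1, was the most abundant BH3-only mRNA. It had 4116 reads in CTL and 4792 in CTL+dox, against 4946 in gRNA2 and 4015 in gRNA2+dox, or 203, 213, 188 and 184 CPM. Both guide pool libraries were below both control libraries, and gRNA2+dox was the lowest. Its log2 ratio in gRNA2+dox was -0.03 against gRNA2 (-0.09 to 0.03), -0.21 against CTL+dox (-0.27 to -0.15) and -0.15 relative to CTL (-0.21 to -0.08).

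BID (chr22:17734138-17774665), which links death receptors to mitochondria once caspase-8 has cleaved it, had 1853, 2229, 2453 and 1985 reads in CTL, CTL+dox, gRNA2 and gRNA2+dox. Its levels were 91.6, 99.1, 93.2 and 90.9 CPM. Only CTL+dox stood a little apart, and it was the highest. The log2 ratio of gRNA2+dox to that library was -0.12 (-0.21 to -0.04), against -0.04 for gRNA2 (-0.12 to 0.05) and -0.01 for CTL (-0.10 to 0.08).

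BCL2L11 (chr2:111120914-111168445), whose product binds all the main pro-survival proteins, had the smallest range of the set. It had 1808 reads in CTL and 1929 in CTL+dox, against 2195 in gRNA2 and 1920 in gRNA2+dox, or 89.4, 85.7, 83.4 and 87.9 CPM. The knockout library lay between both control libraries. The log2 ratio to gRNA2 was 0.08 (-0.01 to 0.17) and to CTL+dox 0.04 (-0.06 to 0.13).

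BIK (chr22:43110750-43129712), a BH3-only protein of the endoplasmic reticulum, was low, with 87, 98, 115 and 109 reads. The levels were 4.30, 4.36, 4.37 and 4.99 CPM in CTL, CTL+dox, gRNA2 and gRNA2+dox. The knockout library was the highest and the other libraries were nearly equal. With about 100 reads a library the intervals were wide, and the log2 ratio of gRNA2+dox was 0.19 against gRNA2 (-0.20 to 0.58) and 0.20 relative to CTL+dox (-0.21 to 0.61). The strand columns, each only a part of these reads, held 44 and 71 reads in gRNA2 and 61 and 48 in gRNA2+dox. Counted on each strand column alone, the ratio to gRNA2 was 0.74 and -0.29, and the first of these passed the limits for a call.

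BMF (chr15:40087890-40108879), which is held on myosin motors until it is released on detachment, had 336 reads in CTL and 293 in CTL+dox, against 447 in gRNA2 and 340 in gRNA2+dox. The levels were 16.6, 13.0, 17.0 and 15.6 CPM. CTL+dox was the lowest library and the others lay close together. The largest difference of BMF was therefore between the control libraries, where CTL+dox had a log2 ratio of -0.35 to its untreated pool (-0.58 to -0.12). In gRNA2+dox the ratio was 0.26 against CTL+dox (0.03 to 0.49) but -0.12 against gRNA2 (-0.33 to 0.08) and -0.09 against CTL (-0.31 to 0.13). With the second strand column alone, which held 166 of the CTL+dox reads and 160 of the gRNA2+dox reads, the ratio to CTL+dox was -0.012.

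**Figure D2:**
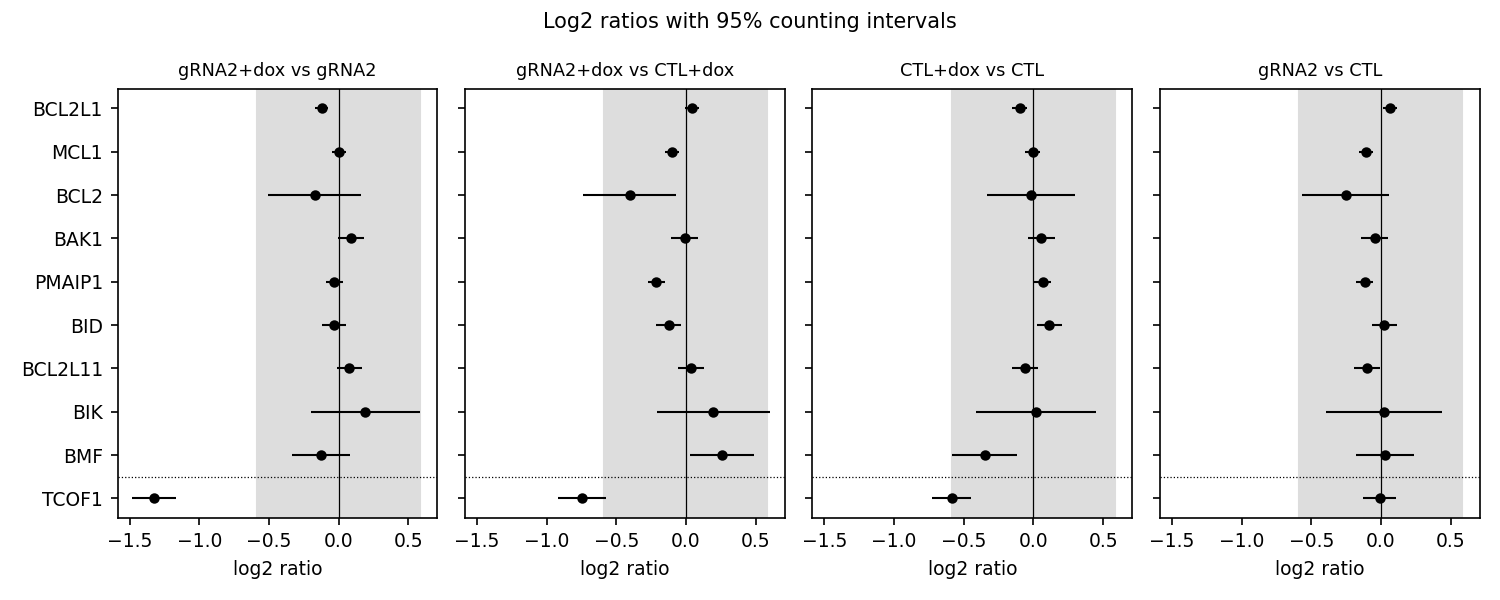
Log2 ratio of each of the 9 tested members and of TCOF1 in 4 comparisons, with bars for the 95% interval from counting error and a grey band for less than 1.5-fold either way. All members' points lie within the band, at most 0.40 from 0 on the log2 scale in these panels. TCOF1 stands at -1.32 and -0.74 in the panels of the knockout library, and at -0.59 in CTL+dox against CTL.

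Within the guide pool, gRNA2+dox against gRNA2, 0 of 9 members were called higher and 0 lower, where a call needed at least 1.5-fold and an interval that excludes 0. Over all 15204 genes 1.82% were called higher and 2.2% lower. The members' log2 ratios ran from -0.17 for BCL2 to 0.19 for BIK with a median of -0.03, beside a median of -0.0021 for all genes. The whole interval lay within 1.5-fold for 9 of 9 members and for 67.8% of all genes. Among genes with a mean of at least 1000 reads, as most members had, the share was 99.6%. With the interval alone as the rule, 1 of 9 members (BCL2L1) differed, beside 30.7% of all genes. Of genes with a mean of at least 1000 reads, 27.1% were above 0 and 23.1% below by that rule.

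Against CTL+dox, the comparison in which both pools had doxycycline, 0 members were called higher and 0 lower, beside 2.56% and 4.2% of all genes. The median of the members was -0.01, with a range from -0.40 for BCL2 to 0.26 for BMF. By the interval alone 5 of 9 differed, with BMF above 0 and BCL2, MCL1, PMAIP1 and BID below, beside 40.2% of all genes. Of genes with a mean of at least 1000 reads, 37.8% were above 0 and 26.4% below. The interval lay within 1.5-fold for 7 of 9 members and 64.2% of all genes, and the exceptions were BCL2 and BIK. Among genes with a mean of at least 1000 reads that share was 98.0%.

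Against CTL, 0 members were called higher and 0 lower, beside 1.82% and 3.85% of all genes. The members' median was -0.06 and their range -0.42 to 0.21. By the interval alone 4 of 9 were below 0 and none above, namely BCL2, MCL1, PMAIP1 and BCL2L1. Over all genes 33.1% differed in either direction, with 16.1% below 0 and 17.0% above. Of genes with a mean of at least 1000 reads, 20.9% were below 0 and 32.3% above. For BCL2L1 the upper bound was -0.0045. The 3 comparisons share the gRNA2+dox library, so their values are given side by side and do not support each other.

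The libraries without the knockout also differed among themselves. For CTL+dox against CTL, 0 members were called higher and 0 lower, beside 1.39% and 1.75% of all genes, and the range was -0.35 for BMF to 0.11 for BID. By the interval alone 4 of 9 members differed (PMAIP1 and BID above 0, BCL2L1 and BMF below), beside 30.4% of all genes. Of genes with a mean of at least 1000 reads, 27.2% were above 0 and 27.7% below. For gRNA2 against CTL, 0 members were called higher and 0 lower, beside 1.33% and 2.75% of all genes, and the range was -0.25 for BCL2 to 0.06 for BCL2L1. Here too 4 of 9 differed by the interval alone (BCL2L1 above 0, MCL1, BCL2L11 and PMAIP1 below), beside 30.8% of all genes. Of genes with a mean of at least 1000 reads, 30.8% were above 0 and 20.8% below.

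**Figure D3:**
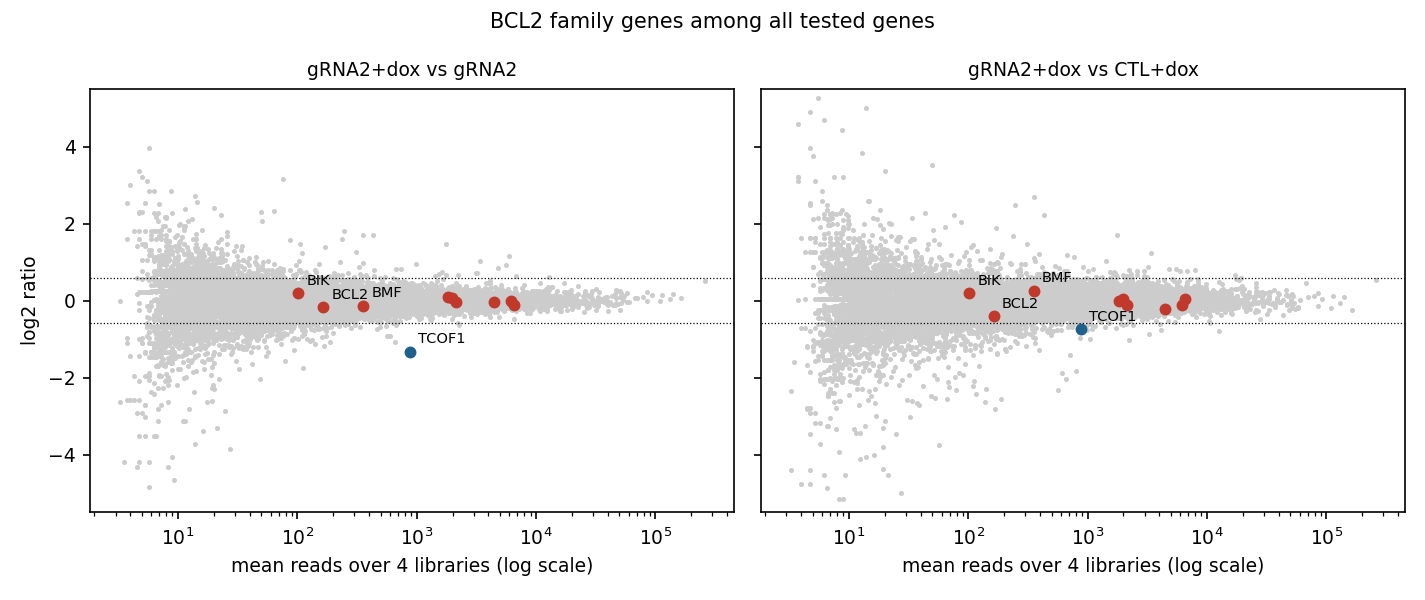
Log2 ratio of each of the 15204 tested genes (grey) against its mean reads over the 4 libraries on a log axis, for gRNA2+dox against gRNA2 and against CTL+dox, with the 9 members in red, TCOF1 in blue and dotted lines at 1.5-fold. The members lie in the dense middle of the cloud at their depth, and TCOF1 lies below the lower line in both panels.

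Most members were deeply sequenced. The 6 members with a mean of at least 1000 reads, BCL2L1, MCL1, PMAIP1, BID, BCL2L11 and BAK1, had a median absolute log2 ratio of 0.06 in gRNA2+dox against gRNA2 and 0.07 against CTL+dox. The 4867 genes of that depth had 0.08 and 0.12, and 0.308% and 1.11% of them were called. BIK and BCL2 had the fewest reads, and their intervals against CTL+dox reached past 1.5-fold.

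The place of the knockout library among the 4 was also close to that of genes at large. It was the highest for 1 of 9 members (BIK), beside 24.8% of all genes, and the lowest for 3 of 9 (BCL2, PMAIP1 and BID), beside 25.7%. For the other 5 members it lay between the others. Over the 4 libraries, 7 of 9 members had a highest level less than 1.2 times the lowest, while the median over the 15168 tested genes with reads in every library was 1.24. For genes with a mean of at least 1000 reads that median was 1.15.

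Doxycycline induces the guide, so its effect in the guide pool was set against its effect in the control pool. The difference of the log2 ratios, guide pool minus control pool, had an interval that excluded 0 for 3 of 9 members, beside 26.6% of all genes. It was 0.14 for BCL2L11 (0.01 to 0.26), -0.10 for PMAIP1 (-0.18 to -0.01) and -0.15 for BID (-0.27 to -0.03). For each of these genes doxycycline gave ratios of opposite sign in the pools, the largest being 0.11 for BID in the control pool. TCOF1, for comparison, had a difference of -0.73 (-0.94 to -0.53).

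The balance between BH3-only and pro-survival mRNAs was read within each library, which needs no scaling between libraries. The summed reads of the 5 BH3-only members were 0.694 of those of the 4 pro-survival members in CTL and 0.737 in CTL+dox, against 0.670 in gRNA2 and 0.696 in gRNA2+dox. The counting interval was 0.677 to 0.716 in the knockout library and overlapped those of CTL (0.675 to 0.714) and gRNA2 (0.654 to 0.687). The interval of CTL+dox (0.717 to 0.757) lay above the other 3. With the first strand column alone, a part of the reads, the order changed. The ratio was 0.531 in CTL+dox and 0.536 in the knockout library, which was then the highest. These values lie close together and have no interval here, so their order is uncertain.

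Among the pairs known to bind each other, reads of PMAIP1 per read of MCL1 were 0.715, 0.752, 0.712 and 0.695 in CTL, CTL+dox, gRNA2 and gRNA2+dox. For BCL2L11 per BCL2L1 the values were 0.307, 0.315, 0.274 and 0.314, with gRNA2 without doxycycline the low one. With the strand columns summed for BCL2L1 they were 0.183, 0.184, 0.165 and 0.185, again with gRNA2 the low one. BMF per BCL2 was 2.05 in CTL (1.69 to 2.48) and 1.63 in CTL+dox (1.35 to 1.97), against 2.50 in gRNA2 (2.10 to 2.99) and 2.58 in gRNA2+dox (2.10 to 3.17). The guide pool had the higher values with and without doxycycline, with intervals that overlapped that of CTL. BID per BCL2L1 ran from 0.306 in gRNA2 to 0.364 in CTL+dox, with 0.325 in the knockout library (0.184 to 0.213 and 0.191 with the strand columns summed), and BIK per BCL2L1 ran from 0.0143 to 0.0178. These are ratios of reads, not of proteins or molecules.

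The level of BCL2L1 given above leaves out reads that lie on its exons, because they were set aside in counting. ABALON, a long non-coding RNA gene, lies on the opposite strand, and 945 bases of its exons overlap the canonical BCL2L1 transcript, 36.7% of the latter's length. Without use of strand a read in the overlap belongs to no single gene and is dropped. The sum of the deposited strand columns for BCL2L1 was 9857, 10473, 13311 and 10396 reads, so the unstranded column kept 58.5% to 60.3% of them. For ABALON the sum was 4069 to 5387 reads, against 90 to 113 in the unstranded column. The strand columns were nearly equal (4872 and 4985 reads of BCL2L1 in CTL), so the libraries do not mark strand. Reads of BCL2L1 and of ABALON in the overlap therefore cannot be told apart by strand, and the sums count them for both genes. The sum for ABALON is thus not a level of ABALON. Reads outside the overlap, those of the unstranded column, were 5895 to 8021 for BCL2L1 and 90 to 113 for ABALON. From which gene the shared reads came was not tested.

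With the strand columns summed, the median of BCL2L1 was 182 CPM per kilobase, and its range of 176 to 191 lay above that of every other member. The log2 ratio of gRNA2+dox was -0.09 against gRNA2 (-0.12 to -0.05) and -0.03 against CTL (-0.07 to 0.0074), where the interval now included 0. The summed BH3-only to pro-survival ratio became 0.520, 0.549, 0.497 and 0.513, with the same order of CTL+dox as the highest and gRNA2 as the lowest. Of the other 9 members only BAK1 lost any, 1 read in each of CTL+dox and gRNA2, and of 10910 genes with a mean of at least 100 reads 417, or 3.82%, had a strand sum over 1.3 times the unstranded count.

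The family has further members, and 11 of them were listed beside the set. HRK and BCL2L10 had at most 3 and 7 reads. None of the other 9 was called in any comparison, beside 1.33% to 2.56% of all genes called higher and 1.75% to 4.2% lower. BAX, the effector partner of BAK1, had 788, 799, 1061 and 851 reads in CTL, CTL+dox, gRNA2 and gRNA2+dox, or 38.9, 35.5, 40.3 and 39.0 CPM. BBC3 (PUMA), a BH3-only p53 target, had 217, 188, 236 and 239 reads, or 10.7, 8.36, 8.96 and 10.9 CPM, so the knockout library and CTL were alike and above the other libraries.

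BCL2L12 was highest in the knockout library, at 34.4, 35.6, 32.9 and 40.6 CPM in CTL, CTL+dox, gRNA2 and gRNA2+dox. Its log2 ratio there was 0.30 against gRNA2 (0.17 to 0.44), 0.24 against CTL (0.09 to 0.38) and 0.19 relative to CTL+dox (0.05 to 0.33), each under 1.5-fold. BCL2L13, a mitochondrial relative, had 68.6, 78.6, 70.1 and 79.1 CPM and was higher with doxycycline in both pools. BOK, an effector-like member, had 35.5, 30.3, 27.0 and 30.6 CPM, highest in CTL and lowest in gRNA2. BAD, a BH3-only protein regulated by phosphorylation, had 27.8, 33.0, 29.7 and 29.0 CPM.

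BCL2L2 (BCL-w), a pro-survival member, stood at 22.4 to 24.8 CPM. Any reads shared with an overlapping readthrough gene would be left out of its count, which was not examined. BCL2L14 had 25 to 37 reads and BCL2L15 had 41 to 60. Over the 9 genes the median log2 ratio of gRNA2+dox to gRNA2 was 0.17, with 4 intervals above 0 (BBC3, BCL2L12, BCL2L13 and BOK) and none below, beside 15.8% and 14.9% of all genes. Against CTL+dox it was 0.02, with 2 above and 1 below, beside 20.6% and 19.6%.

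Upstream and downstream genes of the pathway were followed in 4 lists. They held 12 partners and turnover factors of BCL2 proteins and 17 genes of the apoptosome, caspases and their inhibitors. The others were 13 tested of 14 death receptor pathway genes and 12 transcription regulators of the family. None of these genes was called in gRNA2+dox against gRNA2, beside 1.82% of all genes called higher and 2.2% lower. The median log2 ratios of the lists there were 0.07, 0.08, 0.07 and -0.03. Taken with the 9 further family genes, the 63 tested genes had 0 called higher and 1 lower against CTL+dox, beside 2.56% and 4.2% of all genes. Against CTL they had 1 higher and 0 lower, beside 1.82% and 3.85%. No listed gene was called the same way against both gRNA2 and CTL+dox.

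The genes behind those calls are named here after their values were seen. BIRC5 (survivin), an inhibitor of apoptosis family member that also serves in chromosome segregation, had 316 reads in CTL and 471 in CTL+dox, against 359 in gRNA2 and 238 in gRNA2+dox, and its log2 ratio to CTL+dox was -0.94 (-1.17 to -0.71). CTL+dox was the highest of the 4 libraries for it. FAS, a death receptor, had 35, 54, 62 and 73 reads in the same order, with a log2 ratio of gRNA2+dox to CTL of 0.94 (0.35 to 1.58). The only other call of the 63 genes was ENDOG, a mitochondrial nuclease, which was lower in gRNA2 than in CTL at 66 and 97 reads, a log2 ratio of -0.93 (-1.41 to -0.47). In pooled spheres, fewer cells of a kind and less RNA per cell cannot be told apart. The proportion of dying cells in each library was not measured in these data. By staining of dead cells, the study reported that the knockout raised cell death in MDA-MB-468 mammospheres. It reported no such rise in Matrigel spheroids or in flat culture.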

How the data were processed

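MDA-MB-468 mammospheres gave 4 RNA-seq libraries, 1 per condition, with 19960644 to 26322847 reads assigned to genes. The authors removed adaptors (fastp), mapped the reads (STAR) and deposited the raw counts per gene that STAR reports, and the submitters' processing notes name hg38. The unstranded column was used. STAR counts only reads that map to 1 place and to 1 gene. The 4 leading lines, which sum unassigned reads, were left out of tests.

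Library sizes were normalised with edgeR 4.0.16 (TMM) in R 4.3.3. A prior count of 0.5 entered the log2 ratios, and a gene was compared where 1 or more libraries held 10 counts. For each pair of libraries, exact 95% Clopper-Pearson intervals were computed with Python 3.11.15 and scipy 1.17.1, and were tested on simulated data. The replicated test planned for counts could not be fitted with 1 library per condition.

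The members and gene lists were chosen with earlier results of these data known. The value of 1 white blood cell marker is not reported here. All 10 members and, of the further family genes, those with at least 10 reads in a library are named, along with listed genes called the same way in the knockout library against gRNA2 and against CTL+dox. Positions of members are those of RefSeq on GRCh38.p14, and transcript lengths and the overlap with ABALON those of GENCODE 44 lifted to GRCh37. Alternatives tried were total counts, size factors of DESeq2 1.42.0, a prior count of 5, thinning, other call rules, an added coefficient of variation of 0.1, other count minimums and the strand columns. The sum of the strand columns was added after the data were seen.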

Additional observations from a re-analysis of the deposited data

Results flagged for a closer look

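For 3 members the log2 ratio of doxycycline to no treatment differed between the guide pool and the control pool by more than counting error. The difference, guide pool minus control pool, was 0.14 for BCL2L11, -0.10 for PMAIP1 and -0.15 for BID. BCL2L11 had a log2 ratio of 0.08 in the guide pool and -0.06 in the control pool, PMAIP1 -0.03 and 0.07, and BID -0.04 and 0.11. By the same rule 26.6% of all genes differ, and spread between cultures was not measured.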

How the results depend on the processing

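No paired analysis was possible because no condition had more than 1 library, and for the same reason no replicate could be left out in turn. Of 315 values of members' log2 ratios under other settings, 7 gained and 15 lost an interval that excludes 0. The sign turned in 21, of which 1 had an interval that excluded 0 in the unstranded column, BMF in gRNA2+dox against CTL+dox, at -0.012 with the second strand column. Each strand column alone holds only a part of the same reads, since the libraries do not mark strand, so its counting error is larger. With the first strand column 1 member, BIK, was called higher in gRNA2+dox against gRNA2, at a log2 ratio of 0.74, while the second strand column gave -0.29. The second strand column gave 1 member, BCL2, lower in gRNA2+dox against CTL. At a minimum log2 ratio of 0.32 in place of 1.5-fold, 1 member was lower in each of gRNA2+dox against CTL+dox, gRNA2+dox against CTL, and CTL+dox against CTL. By the interval alone, members higher and lower were 0 and 1 in gRNA2+dox against gRNA2, 1 and 4 against CTL+dox, 0 and 4 against CTL, 2 and 2 in CTL+dox against CTL, and 1 and 3 in gRNA2 against CTL. Thinned to the smallest total, the knockout library was the highest for 2 members. The BH3-only to pro-survival ratio in CTL, CTL+dox, gRNA2 and gRNA2+dox was 0.520, 0.549, 0.497 and 0.513 with the strand columns summed, 0.521, 0.531, 0.505 and 0.536 with the first, and 0.519, 0.566, 0.489 and 0.492 with the second, since reads of BCL2L1 shared with ABALON are then counted. With the first column the knockout library, not CTL+dox, was the highest, at 0.536 beside 0.531 and without an interval.

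Over all genes, counts higher and lower in gRNA2+dox against gRNA2 were 276 and 335. At cutoffs modelled on the study's (a log2 ratio of 1 and a bound of 0.5) they were 43 and 39, and with at least 50 counts 142 and 207. The study took its second value from GFOLD, which was not run here, and the bound used here came from the read counts. At a minimum log2 ratio of 0.32 the counts were 613 and 719, and by the interval alone 2404 and 2265. Against CTL+dox, 389 and 638 became 69 and 149, 239 and 411, 1080 and 1282, and 3137 and 2977. Against CTL, 276 and 585 became 61 and 127, 174 and 370, 702 and 1106, and 2580 and 2449. For CTL+dox against CTL, 211 and 266 became 8 and 19, 94 and 130, 495 and 659, and 2253 and 2370, and for gRNA2 against CTL, 202 and 418 became 16 and 62, 112 and 213, 524 and 846, and 2383 and 2299.

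Depth limits BCL2A1, BIK and BCL2 most. The spread between cultures is unknown, so intervals are too narrow as errors of the conditions.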
